A study of Arabidopsis thaliana with 6 samples.

Results

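The 10 genes of indole glucosinolate modification examined here were taken from the count tables by their locus identifiers: the cytochrome P450 genes CYP81F1, CYP81F2, CYP81F3 and CYP81F4, the methyltransferase genes IGMT1, IGMT2, IGMT3 and IGMT4, and PEN2 and PEN3. They are 10 of the 38189 genes in the files, and all 10 were found. RNA sequencing had been done on 3 libraries of the Arabidopsis thaliana Columbia wild type (WT) and 3 of the hb34 mutant in that background, all mock treated, from 10-day-old plants. They had been grown on half-strength Murashige and Skoog medium at 22 °C in days of 16 h light and 8 h dark. HB34 belongs to the zinc finger homeodomain family of transcription factors. The sources used here do not give the kind of allele. The labels call the tissue leaves, and the extraction protocol speaks of seedlings. Nothing says whether replicates came from separate pools of plants, so p-values measure the spread between these libraries, which may be technical.

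Indole glucosinolates are sulfur-rich defense compounds that Brassicaceae make from tryptophan. The parent compound, indol-3-ylmethyl glucosinolate, is hydroxylated on its indole ring by CYP81F enzymes and the hydroxyl group is then methylated by IGMT enzymes. PEN2, an atypical myrosinase, cleaves the 4-methoxy form in leaf cells under attack by fungi, and PEN3, an ABC transporter of the plasma membrane, is placed downstream of it in the export of products. Genetic work in Arabidopsis tied PEN2, PEN3 and CYP81F2 to resistance against fungal entry into leaf cells and to callose deposition after flagellin perception.

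The libraries held between 17562497 and 19670468 counts. HB34 itself (AT3G28920) fell from 1547 to 1821 counts per WT library to between 19 and 43 (edgeR adjusted p = 0.000419). The 6 leaf marker genes summed to between 62810 and 74680 CPM (counts scaled to a common depth with TMM library sizes) with no separation of the groups in the sum. Of the 6, 0 passed with edgeR and 2 had positive log2 fold changes. For RCA alone all hb34 libraries lay above all WT libraries, as for 17.8% of all genes tested. It stood at 4731, 7672 and 7830 CPM for WT against 9394, 11040 and 8875 CPM for hb34 (edgeR adjusted p = 0.127). The 13 root marker genes summed to between 0.107 and 0.818 CPM, with 9 to 11 of the 13 at 0 in each library. The root sum was 0.636 to 0.818 CPM in WT and 0.107 to 0.411 CPM in hb34, and its part in the results was not tested. ESB1 alone stood at 0.583, 0.652 and 0.460 CPM for WT against 0.054, 0.158 and 0.103 CPM for hb34. Of its exon bases, 84.3% also lie in exons of a gene on the opposite strand. The other root markers had at most 4 counts in any library, and for each of them the groups overlapped. Replicate 2 of hb34 stood apart: on the leading principal component, which held 55.5% of the variance, it lay at 82.1, the other hb34 libraries at 8.53 and 17.6, and WT between -41.2 and -25.8. Values without it, a comparison partly chosen after seeing the data, are given beside the results it weighs on most.

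The members lie in 5 places. IGMT1 (gene-AT1G21100 in the files), IGMT3 (gene-AT1G21110), IGMT2 (gene-AT1G21120) and IGMT4 (gene-AT1G21130) stand in tandem on the minus strand of chromosome 1, from 7386762 to 7400736. CYP81F3 (gene-AT4G37400), CYP81F4 (gene-AT4G37410) and CYP81F1 (gene-AT4G37430) stand on the plus strand of chromosome 4, from 17583992 to 17598958. CYP81F2 (gene-AT5G57220) is alone on chromosome 5, from 23187840 to 23189902, PEN2 (gene-AT2G44490) on chromosome 2, from 18364652 to 18367835, and PEN3 (gene-AT1G59870, also ABCG36) on chromosome 1, from 22034423 to 22040126. All 10 are protein-coding genes, coordinates are those of TAIR10.1, and the counts are over exons.

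The IGMT genes are close copies, which sets how far their counts can be told apart. The first 60 coding bases of each are shown 5′ to 3′ on the coding strand (RefSeq TAIR10.1, minus strand, chr1:7388259-7388318, chr1:7396581-7396640, chr1:7391360-7391419 and chr1:7400411-7400470), with capitals at the 7 positions where the 4 copies do not all hold the same base.
IGMT1: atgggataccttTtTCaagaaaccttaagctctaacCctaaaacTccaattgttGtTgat
IGMT2: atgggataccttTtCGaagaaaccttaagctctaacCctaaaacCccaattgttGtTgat
IGMT3: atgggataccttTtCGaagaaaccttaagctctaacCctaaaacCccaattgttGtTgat
IGMT4: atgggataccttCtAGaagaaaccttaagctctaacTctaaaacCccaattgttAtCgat
IGMT2 and IGMT3 are the same over this stretch, and over their coding sequences of 1122 bases they are 97.4% identical, against 92.5% to 93.4% for the other 5 pairs. Of windows of 150 bases within exons, the read length, 16.3% in IGMT2 and 16.7% in IGMT3 occur elsewhere in the genome, and 0 in IGMT1 and IGMT4. At 50 bases these shares are 36.7%, 44.7%, 10.4% and 9.05% for IGMT2, IGMT3, IGMT1 and IGMT4. The sources used here do not give how reads with several matches were counted, and the split between IGMT2 and IGMT3 in particular is uncertain. The CYP81F coding sequences are 70.2% to 81.7% identical in pairs, and 0 windows of 50 bases in them occur elsewhere.

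The 250 bases before the annotated start of each gene were searched on both strands for letters known from regulators of this pathway and of defense. Shown here are CYP81F2 (chr5:23187590-23187839, plus strand), whose transcript rose, and IGMT1 (chr1:7388513-7388762, minus strand), which also rose. The near-identical copies IGMT2 (chr1:7396824-7397073) and IGMT3 (chr1:7391604-7391853), both minus strand, are shown too, and the split of counts between them is uncertain. Sequences are from RefSeq TAIR10.1, 5′ to 3′ on the gene's strand, and capitals mark the W-box letters TTGACC or TTGACT on either strand, the type of site bound by WRKY factors.
CYP81F2: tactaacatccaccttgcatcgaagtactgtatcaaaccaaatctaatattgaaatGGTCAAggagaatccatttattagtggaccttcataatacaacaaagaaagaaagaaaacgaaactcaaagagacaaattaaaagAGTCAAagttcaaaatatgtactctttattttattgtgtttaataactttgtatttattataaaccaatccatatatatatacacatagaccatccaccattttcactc
IGMT1: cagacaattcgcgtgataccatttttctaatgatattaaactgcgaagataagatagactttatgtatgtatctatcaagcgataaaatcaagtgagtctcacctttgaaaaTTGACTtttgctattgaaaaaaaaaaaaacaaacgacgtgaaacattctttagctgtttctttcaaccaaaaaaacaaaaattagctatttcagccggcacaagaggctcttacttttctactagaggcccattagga
IGMT2: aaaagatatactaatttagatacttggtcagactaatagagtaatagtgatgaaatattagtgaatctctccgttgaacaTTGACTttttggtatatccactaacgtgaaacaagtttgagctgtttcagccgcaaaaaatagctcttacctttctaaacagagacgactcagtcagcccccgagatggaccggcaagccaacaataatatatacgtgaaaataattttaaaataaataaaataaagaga
IGMT3: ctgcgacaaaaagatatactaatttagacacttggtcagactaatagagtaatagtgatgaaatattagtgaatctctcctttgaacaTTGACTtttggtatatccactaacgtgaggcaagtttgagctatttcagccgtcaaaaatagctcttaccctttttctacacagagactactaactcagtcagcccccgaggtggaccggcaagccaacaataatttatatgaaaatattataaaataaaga
W-box letters stood in the window of 7 of the 10 members, and of 28.4% of the 27443 protein-coding genes with such a window. They begin 194 and 109 bases before the start of CYP81F2 and 138 bases before that of IGMT1. PEN3 has them 217, PEN2 82 and IGMT4 72 bases before the start. IGMT2 and IGMT3 hold the same letters 170 and 162 bases before their starts, and their windows are 94.9% identical over 235 aligned bases. The windows of CYP81F1, CYP81F3 and CYP81F4 hold none. The homeodomain core TAATTA stood in the window of CYP81F4 alone among the 10, and in 28.4% of all windows. The G-box CACGTG (6.49% of all windows) and the MYB element letters ACCTACC or ACCAACC (3.79%) stood in 0 of the 10. These matches are letters in a window and say nothing of binding.

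Of the 10 members, 2 rose in hb34 and 0 fell, in edgeR's quasi-likelihood test adjusted over the 17905 genes with enough counts to be tested. The 2 were IGMT1 and CYP81F2. Over all genes tested, 3.77% rose and 2.5% fell. CYP81F1 and CYP81F4 had no counts and were not tested, and the remaining 6 did not pass. By unadjusted p under 0.05, 7 of the 8 tested members were higher and 0 were lower, where 16.5% of all genes were higher and 13.3% were lower. For those 7 all 3 hb34 libraries lay above all 3 WT libraries, as they did for 17.8% of all genes (17.5% lay below in the same way). IGMT1 and IGMT3 reached the minimum level for testing in 2 of 3 WT libraries and only through the 3 hb34 libraries entered the test, so the counts over tested members are a description. With DESeq2, which called 9% of its genes higher and 5.51% lower, 5 members rose (CYP81F2, CYP81F3, IGMT1, IGMT3 and IGMT4), and with limma-voom, which called 3.36% higher and 2.33% lower, 0 rose. Leaving out 1 library, edgeR called 0 members without WT replicate 1, 2 or 3 and without hb34 replicate 1. Of all genes, 1 was called higher without WT replicate 1 and 1 without WT replicate 2, but 502 without WT replicate 3 and 653 without hb34 replicate 1, so the member calls were lost also where many others were kept. In such bulk RNA, a change in RNA per cell and a change in the number of cells of a type cannot be told apart.

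**Figure D1:**
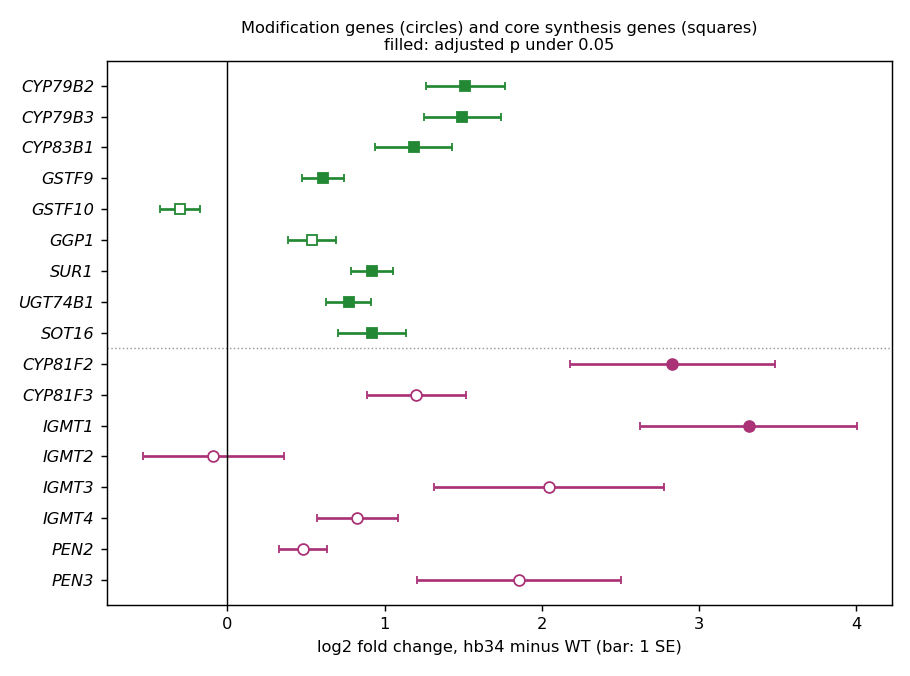
Log2 fold change, hb34 minus WT, of the 8 tested modification genes (circles) and the 9 core synthesis genes (squares), with bars of 1 SE from the edgeR fit on 3 libraries each; filled symbols have an adjusted p under 0.05. CYP81F2 and IGMT1 have the largest estimates, 2.83 and 3.31, and wide bars, while the core genes that passed lie between 0.61 and 1.51.

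CYP81F2 encodes the hydroxylase chiefly responsible for the 4-hydroxy form of the indole glucosinolate in leaves. WT libraries held 29, 40 and 63 counts and hb34 libraries 215, 628 and 122, or 1.54, 2.37 and 3.22 CPM against 11.5, 33.1 and 6.27 CPM. Every hb34 library lay above every WT library, and replicate 2 was the highest by far. The mean was 7.15-fold that of WT (log2 fold change 2.83, SE 0.652, adjusted p = 0.0476 with edgeR's quasi-likelihood test). Without hb34 replicate 2 the log2 fold change was 1.90 with an adjusted p of 0.0156 in the same edgeR fit. Without WT replicates 1, 2 or 3, or without hb34 replicate 1, the edgeR adjusted p was 0.192, 0.177, 0.0833 and 0.0502. The genes on either side, AT5G57210 and AT5G57230, had log2 fold changes of -0.02 and -0.65 with edgeR adjusted p of 0.958 and 0.179. The genes that flank PEN2, PEN3 and the chromosome 4 cluster had at most 19 counts in any library and were not tested.

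CYP81F3 encodes a hydroxylase of the same kind. WT libraries held 30, 40 and 59 counts and hb34 libraries 88, 136 and 82, that is 1.59, 2.37 and 3.02 CPM against 4.72, 7.18 and 4.22 CPM. The hb34 libraries lay above all WT libraries here too, and closer together than for CYP81F2. The log2 fold change was 1.20 (SE 0.313, edgeR adjusted p = 0.0608), and 0.94 without hb34 replicate 2. In WT, CYP81F2 and CYP81F3 had almost equal counts: CYP81F2 made up 49.1%, 50% and 51.6% of their sum. In hb34 its share was 71%, 82.2% and 59.8%. On counts per kilobase of exon the shares averaged 51.5% ± 1.26 in WT and 71.9% ± 11 in hb34 (SD, n = 3 each), a difference of 20.5 percentage points. The groups did not overlap, and the two-sided exact permutation p was 0.1, the smallest that 3 against 3 allow. This share was not among the planned results, and it restates the counts given above.

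CYP81F1 and CYP81F4 had 0 counts in each of the 6 libraries. CYP81F4 encodes the hydroxylase that acts at position 1 of the indole ring, and CYP81F1 one that acts at position 4. A count of 0 allows up to 3 counts, which is 0.153 to 0.178 CPM in these libraries (counting error only). This bound takes no account of the exon overlap described next, so it is not a limit on the expression of either gene. In the annotation behind the counts, all but 29 of the 1764 exon bases of CYP81F1 (98.4% are shared) also lie in exons of AT4G37432, a long noncoding RNA on the opposite strand. Of the 1722 exon bases of CYP81F4, 1519 (88.2%) also lie in exons of AT4G37409, a protein-coding gene on the opposite strand. Both overlapping genes had 0 counts as well. The other 8 members share 0 exon bases with another gene.

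Across the genome, genes with most or all exon bases shared lacked counts more often than genes with few or none. Of 368 protein-coding genes whose exon bases all lie in exons of other genes, 365 (99.2%) had no count in any library. Of those with at least 50% but not all bases shared, 398 of 745 (53.4%) had none. The share was lowest, 519 of 6512 genes (7.97%), where some but under 50% of bases are shared, and was 4899 of 19835 (24.7%) where none is. MYC2, the jasmonate-pathway transcription factor gene, shares 98.5% of its exon bases with AT1G32630 on the opposite strand and also had 0 counts. The zeros of CYP81F1 and CYP81F4 therefore do not show that these genes were silent, and no level or change is reported for either.

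**Figure D2:**
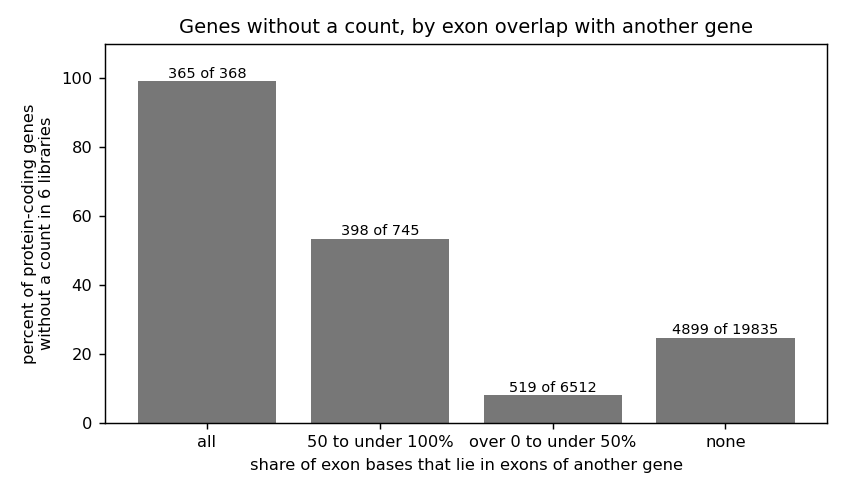
Percent of protein-coding genes without a count in the 6 libraries, by the share of their exon bases that lie in exons of another gene; numbers above the bars are genes without a count of all genes in the class. Genes whose exons lie wholly in those of other genes had no count in 365 of 368 cases, against 4899 of 19835 genes that share no base and 519 of 6512 that share some but under 50%.

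IGMT1 encodes a methyltransferase that converts the hydroxylated indole glucosinolates to their methoxy forms. Counts were 5, 13 and 13 for WT but 92, 187 and 42 for hb34, that is 0.265, 0.771 and 0.664 CPM against 4.94, 9.87 and 2.16 CPM. The order of the hb34 libraries was that of CYP81F2, with replicate 2 highest and replicate 3 lowest, and all were above WT. The mean was 9.98-fold that of WT (log2 fold change 3.31, SE 0.688, edgeR adjusted p = 0.0378). Without hb34 replicate 2 the log2 fold change was 2.64 with an edgeR adjusted p of 0.0193. Without WT replicate 1, 2 or 3 or hb34 replicate 1 the edgeR adjusted p was 0.168, 0.143, 0.076 and 0.0502.

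IGMT4, a methyltransferase gene of the same tandem array, gave most of the counts of the array. Counts were 848, 730 and 793 for WT but 1323, 2037 and 965 for hb34, or 45.0, 43.3 and 40.5 CPM against 71.0, 107.5 and 49.6 CPM. Its WT libraries lay close together and below all hb34 libraries, and hb34 replicate 3 was only just above them. The log2 fold change was 0.82 (SE 0.257, edgeR adjusted p = 0.0896). It was 0.49 without hb34 replicate 2, and 1.06 without hb34 replicate 3, where the edgeR adjusted p was 0.0484.

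IGMT3 received 9, 15 and 13 counts from WT libraries and 107, 25 and 26 from hb34 libraries. Here hb34 replicate 1 was far above the rest, at 5.74 CPM, while replicates 2 and 3 had 1.32 and 1.34 CPM and WT 0.477 to 0.889 CPM. The log2 fold change was 2.04 (SE 0.732, edgeR adjusted p = 0.117), and 0.98 without hb34 replicate 1. IGMT2 received 26, 38 and 52 counts from WT libraries and 62, 27 and 23 from hb34 libraries, again highest in hb34 replicate 1. Its groups overlapped, and the log2 fold change was -0.09 (SE 0.449, edgeR adjusted p = 0.906), with values from -0.68 to 0.18 over the alternatives. With IGMT2 and IGMT3 counted as 1 gene, an alternative chosen after seeing the data, the sum was 35, 53 and 65 counts for WT and 169, 52 and 49 for hb34. Its log2 fold change was 0.78 (SE 0.537, edgeR adjusted p = 0.357), and -0.07 without hb34 replicate 1.

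Summed over the array, IGMT1 to IGMT4 reached 47.1, 47.2 and 44.5 CPM for WT against 85.0, 120.1 and 54.3 CPM for hb34. All hb34 libraries were above WT, and the log2 fold change of the sum was 0.90 (SE 0.259, edgeR adjusted p = 0.0758). IGMT1 made up 0.563%, 1.63% and 1.49% of the array's counts in WT and 5.81%, 8.22% and 3.98% in hb34. The mean share was 1.23% ± 0.582 in WT and 6% ± 2.13 in hb34 (SD, n = 3 each), with no overlap between the groups and a two-sided exact permutation p of 0.1, the smallest possible. The shares of IGMT2, IGMT3 and IGMT4 had exact permutation p of 0.2, 0.3 and 0.2. Beside the array, AT1G21090 had a log2 fold change of 0.25 (edgeR adjusted p = 0.698). IGMT5 (AT1G76790), whose product methylates the 1-hydroxy form, lies elsewhere on chromosome 1. Its counts, 3, 8 and 3 for WT against 2, 16 and 35 for hb34, were too few to be tested.

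**Figure D3:**
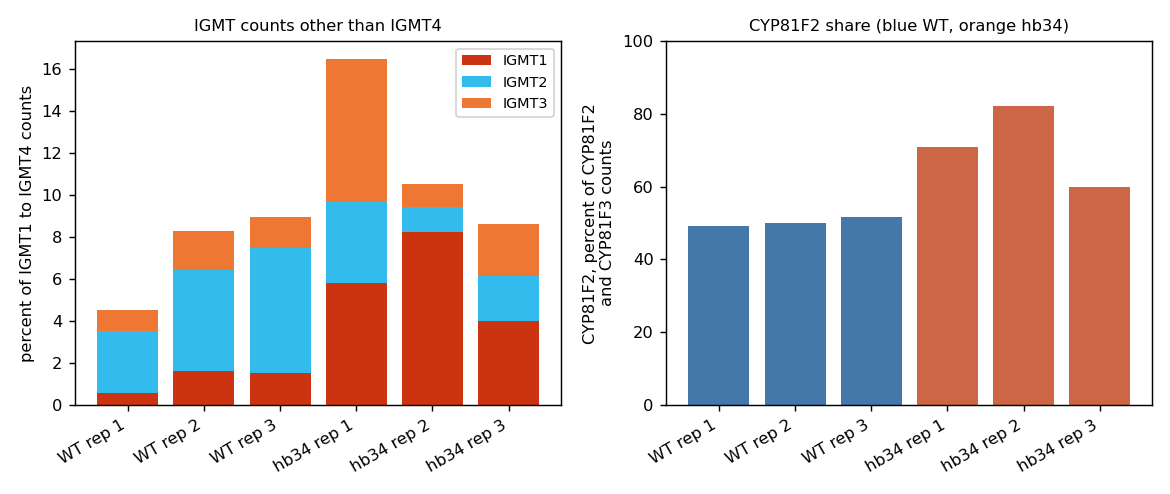
Left, percent of the counts of IGMT1 to IGMT4 that fell on IGMT1, IGMT2 and IGMT3 in each library (the rest, 83.5% to 95.5%, fell on IGMT4); right, percent of the summed CYP81F2 and CYP81F3 counts that fell on CYP81F2. The IGMT1 part is 0.563% to 1.63% in WT and 3.98% to 8.22% in hb34, and the CYP81F2 share is near 50% in WT and 59.8% to 82.2% in hb34.

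PEN2 received 1600, 1535 and 1526 counts from WT libraries and 1865, 2688 and 2181 from hb34 libraries, that is 84.8, 91.0 and 78.0 CPM against 100.1, 141.9 and 112.1 CPM. All hb34 libraries were above all WT libraries by a small margin. The log2 fold change was 0.48 (SE 0.15, edgeR adjusted p = 0.0899), and between 0.33 and 0.59 over the alternatives. PEN2 did not pass in any of the 15 alternatives.

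PEN3 received 1508, 1590 and 2273 counts from WT libraries and 3153, 14403 and 2331 from hb34 libraries. Its level was 79.9, 94.3 and 116.1 CPM for WT against 169.2, 760.2 and 119.8 CPM for hb34. Replicate 2 of hb34 held several times the level of any other library, and replicate 3 was barely above the highest WT library. The log2 fold change was 1.85 (SE 0.647, edgeR adjusted p = 0.113), and 0.58 without hb34 replicate 2 (edgeR adjusted p = 0.0935). PEN3 did not pass in any of the 15 alternatives. Among 14 other genes of the same ABC transporter subfamily, 9 were tested, with a median log2 fold change of 0.49 against 0.01 over all genes. Of the 9, 1 rose and 0 fell, against 3.77% and 2.5% of all genes tested. The 1 was ABCG34, from 7.27 ± 1.97 to 13.8 ± 1.54 CPM (SD, n = 3 each; edgeR adjusted p = 0.0497), and 0 of the 14 were called with upper quartile scaling, with the replicate block, or in 5 of the 6 fits that leave out 1 library.

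**Figure D4:**
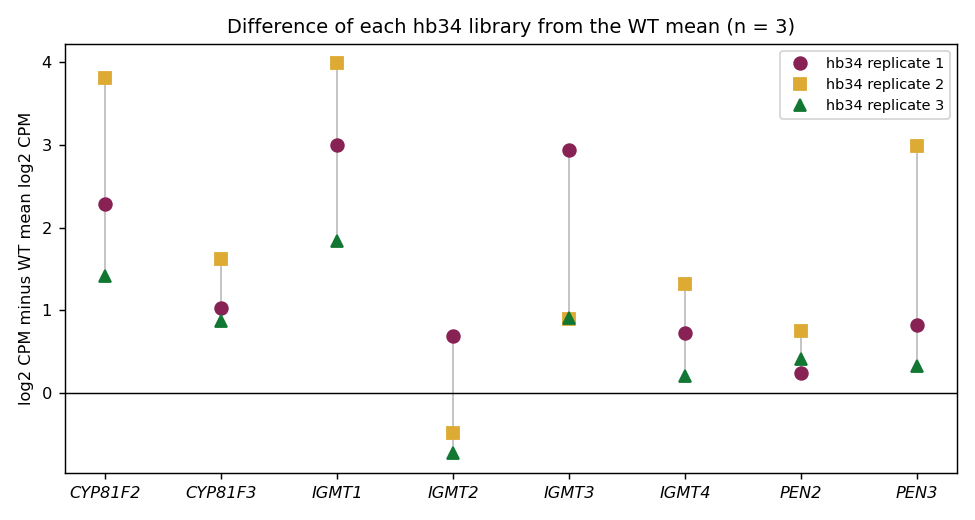
Difference of each hb34 library from the mean of the 3 WT libraries, in log2 CPM with a prior count of 2, for the 8 tested members. Replicate 2 is the highest for CYP81F2, CYP81F3, IGMT1, IGMT4, PEN2 and PEN3, and replicate 1 for IGMT2 and IGMT3; IGMT2 is the member with points on both sides of 0.

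The hb34 libraries did not order the members alike. Relative to the WT mean, replicate 2 had differences of 3.802 for CYP81F2, 3.98 for IGMT1 and 2.99 for PEN3 in log2 CPM, but 0.90 for IGMT3 and -0.48 for IGMT2. Replicate 1 had 2.93 for IGMT3 and 3.00 for IGMT1, and 0.82 for PEN3. Replicate 3 was the lowest of the 3 for CYP81F2 (1.42), CYP81F3 (0.87), IGMT1 (1.84), IGMT2 (-0.73), IGMT4 (0.21) and PEN3 (0.33).

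Per kilobase of exon, PEN2 was the most abundant member in WT, at 38.1 ± 2.94 CPM per kb (SD, n = 3 here and for the levels that follow). Next came IGMT4 at 23.4 ± 1.22 and PEN3 at 19.6 ± 3.70 CPM per kb, whose libraries overlapped in level. IGMT2 (1.44 ± 0.449), CYP81F2 (1.34 ± 0.476) and CYP81F3 (1.25 ± 0.385) were far lower and overlapped each other. IGMT3 (0.472 ± 0.144) and IGMT1 (0.367 ± 0.173) were the lowest, below every library of CYP81F3, and overlapped each other. In hb34 the order was PEN3 (70.9 ± 72.3), PEN2 (53.1 ± 9.68), IGMT4 (41.5 ± 16), CYP81F2 (9.61 ± 8.06), IGMT1 (3.66 ± 2.53), CYP81F3 (2.90 ± 0.854), IGMT3 (1.95 ± 1.78) and IGMT2 (1.36 ± 0.806 CPM per kb). Neighbours in that order overlapped, save IGMT4 and CYP81F2. Without hb34 replicate 2, 3 of the 8 kept their place in the hb34 order: PEN2 led, PEN3 came after IGMT4, and IGMT1, at 2.30 CPM per kb, came after IGMT3 (2.47) and CYP81F3 (2.41).

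**Figure D5:**
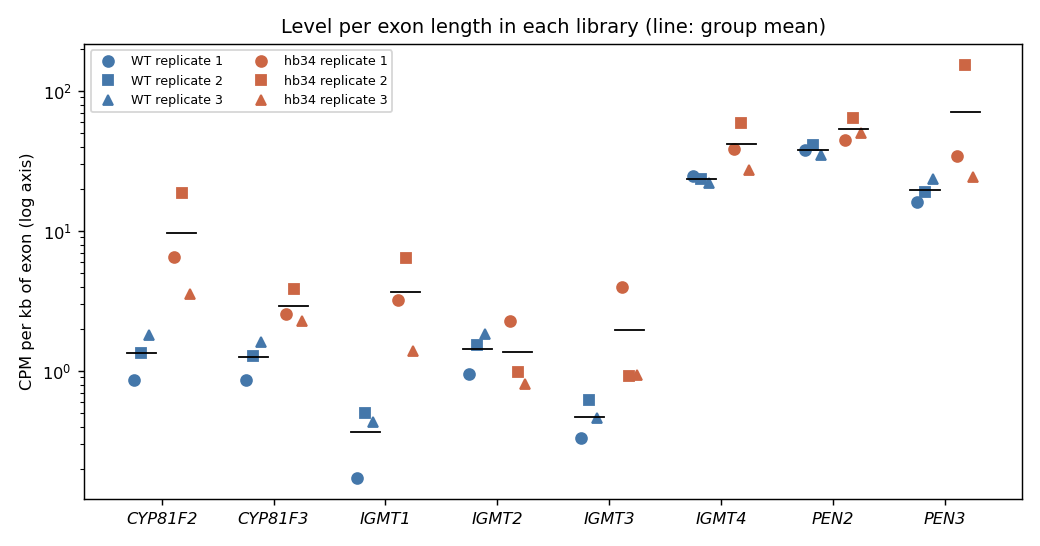
CPM per kilobase of exon in each library for the 8 members with counts, on a log axis; symbols mark replicates, colours mark genotypes and short lines mark group means. PEN2, IGMT4 and PEN3 lie well above the other members in WT, and IGMT1 has the lowest mean in WT; its place in the middle of the hb34 means rests on replicate 2.

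Upstream of these steps, the 9 core genes that build the parent glucosinolate from tryptophan were all tested. Of them 7 rose and 0 fell, against 3.77% and 2.5% of all genes tested. This list, like the other gene lists here, was written with earlier results of these data known, so its counts are a description. By unadjusted edgeR p under 0.05, 8 core genes were higher and 1 was lower, against 16.5% and 13.3% of all genes. The lower 1 was GSTF10 (log2 fold change -0.30, edgeR adjusted p = 0.167). The median log2 fold change of the core genes was 0.92, against 0.01 over all genes. It was 0.73 without hb34 replicate 2, where 7 core genes again rose, beside 853 of all 18162 genes tested in that fit. SUR1, the C-S lyase gene, rose from 99.7 ± 15.3 to 188.7 ± 8.60 CPM (SD, n = 3 each; edgeR adjusted p = 0.0169). The entry enzyme genes CYP79B3 (log2 fold change 1.49, edgeR adjusted p = 0.0207) and CYP79B2 (1.51, 0.0218) and the glucosyltransferase gene UGT74B1 (0.77, 0.0293) rose as well. The number of core genes that rose was 0 with the replicate block and in the fits that left out WT replicate 1 or 2. It was 3 in those that left out the third WT or the third hb34 library.

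Of 13 regulator genes, among them MYB34, MYB51 and WRKY33, 11 were tested and 0 passed with edgeR. By unadjusted edgeR p under 0.05, 3 were higher and 1 was lower, against 16.5% and 13.3% of all genes. MYB51 was among the 3 higher, and MYB34 was the 1 lower. MYB51 stood at 7.79, 8.78 and 7.36 CPM for WT against 9.55, 47.6 and 20.3 CPM for hb34 (edgeR adjusted p = 0.0874). For MYB34 the values were 80.3, 85.1 and 76.5 CPM for WT against 73.15, 39.85 and 58.25 CPM for hb34 (edgeR adjusted p = 0.158). DESeq2, which called 9% of its genes higher, called 3 of the regulators higher, and limma-voom 0. When hb34 replicate 1 was left out, edgeR called 3 regulators higher, and 653 of all genes. The smallest p was that of WRKY33, a W-box binding factor of the defense response. Its level was 43.9, 44.4 and 52.1 CPM for WT against 48.4, 372.1 and 206.3 CPM for hb34 (log2 fold change 2.16, SE 0.608, edgeR adjusted p = 0.0728). Without hb34 replicate 2 its log2 fold change was 1.45 (edgeR adjusted p = 0.0818). Its hb34 replicate 1 lay within the WT range. Any part of the regulators in the changes of the members was not tested. MYB122 and MYC2 had no counts.

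Of 6 genes that act beside PEN2 and PEN3 in penetration resistance, 0 passed with edgeR. They include the syntaxin gene PEN1 and the phytochelatin synthase gene PCS1. By unadjusted edgeR p under 0.05, 0 of the 6 were higher and 1 was lower, against 16.5% and 13.3% of all genes. DESeq2, which called 5.51% of its genes lower, called 1 of the 6 lower, and limma-voom 0. VAMP721, a vesicle SNARE gene, had the smallest p, at 54.6 ± 3.93 CPM for WT against 40.6 ± 2.04 CPM for hb34 (SD, n = 3 each; edgeR adjusted p = 0.064). Of 5 genes of other indole defense compounds, camalexin among them, 1 was tested: PAD3 stood at 2.17, 1.13 and 5.93 CPM for WT against 0.698, 1.48 and 0.668 CPM for hb34 (log2 fold change -1.72, edgeR adjusted p = 0.135). Of 13 other CYP81 genes 7 were tested and 1 rose, against 3.77% of all genes tested. It was CYP81D1, from 15.5 ± 0.237 to 26.1 ± 2.18 CPM (SD, n = 3 each, edgeR adjusted p = 0.022). The median log2 fold change of the 7 was 0.06, and CYP81D1 did not pass without WT replicate 1, WT replicate 2 or hb34 replicate 3.

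Of 15 other atypical myrosinase genes 3 were tested and 1 rose, against 3.77% of all genes tested. It was BGLU18, a beta-glucosidase gene of endoplasmic reticulum bodies, at 63.8, 60.9 and 52.2 CPM for WT against 171.9, 282.7 and 159.8 CPM for hb34 (log2 fold change 1.80, SE 0.229, edgeR adjusted p = 0.0125). Without WT replicate 1 or 2 it did not pass. DESeq2, edgeR with no filter on low counts and edgeR without hb34 replicate 1 each called 2 of the 15, BGLU18 and PYK10. Of 3 glucosinolate transporter genes 0 passed with edgeR and limma-voom. By unadjusted edgeR p under 0.05, 1 was higher, against 16.5% of all genes. DESeq2, which called 9% of its genes higher, called the same 1. It had the smallest p: GTR1 stood at 72.8, 63.6 and 87.6 CPM for WT against 91.6, 314.7 and 125.4 CPM for hb34 (log2 fold change 1.25, SE 0.425, edgeR adjusted p = 0.107). Without hb34 replicate 2 its log2 fold change was 0.54 (edgeR adjusted p = 0.0925).

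The gene whose pattern over the 6 libraries was most like that of IGMT1 was CYP81F2. The likeness is the root mean square difference of log2 CPM after each gene was centred on its mean, over genes whose log2 CPM averaged 1 or more, and it was 0.34. Next for IGMT1 came AT4G04293 (0.45), AT1G52000 (0.56) and the myrosinase-binding protein gene MBP1 (0.62). IGMT1 itself averaged under 1 and was not among the genes compared, so it is not listed for CYP81F2, although the 0.34 holds both ways. Among the genes compared, those nearest to CYP81F2 were AT1G52000 (0.41), NCED3, an abscisate synthesis gene (0.47), AT4G16870 (0.48) and AT4G04293 (0.51). AT1G52000 stood at 16.6, 16.5 and 17.99 CPM for WT against 68.0, 175.3 and 67.0 CPM for hb34. The points share the 6 libraries, so the likeness is a description. Without hb34 replicate 2, CYP81F2 was second nearest to IGMT1 (0.37) of 15470 genes, and AT4G16870 was nearest to CYP81F2 (0.23), while NCED3 was at place 166 for CYP81F2 (0.51) and MBP1 at place 25 for IGMT1 (0.63).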

How the data were processed

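Total RNA was sequenced as paired-end Illumina reads of 3 WT and 3 hb34 libraries, per the labels' protocols. Each library has a table of raw read counts by gene, as the authors deposited it. The submitters' processing notes name HISAT2 2.1.0, DESeq2 1.30.1 and TAIR10, without roles. The sources used here do not give how reads were counted, with what strand setting, or how multiply matching reads were treated. For 38187 of 38189 genes the deposited exons fall within that gene in RefSeq TAIR10.1, the source of sequences and coordinates. Members and lists were chosen with earlier results of these data known.

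The quasi-likelihood test of edgeR 4.0.16 (R 4.3.3, legacy FALSE, genotype the only term, two-sided) was run after filterByExpr at a minimum count of 10 and a minimum total of 15, on TMM library sizes. P-values were adjusted by Benjamini-Hochberg for 17905 genes, and 0.05 was the threshold. The fit was tested on simulated data. Log2 CPM have a prior count of 2. Standard errors come from the unshrunk coefficient over the root of its F statistic. Alternatives were 3 other scalings, 2 other filters, DESeq2 1.42.0, limma-voom (limma 3.58.1), robust dispersions, a replicate block and leaving out each library. Beyond the 10 members, genes named are every passing list member, at most 4 by smallest p, or else the smallest p; the genes that flank the members where they had enough counts to be tested; and the 4 nearest in pattern to CYP81F2 and IGMT1. MYC2, MYB122, MYB34, MYB51, PEN1, PCS1, ESB1, RCA and GSTF10 were named outside this rule. Replicates of a group differed by far more than counting noise (chi-square per degree of freedom 12.5 to 64.8).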

Additional observations from a re-analysis of the deposited data

How the results depend on the processing

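The log2 fold changes of CYP81F2, CYP81F3, IGMT1, IGMT3, IGMT4, PEN2 and PEN3 stayed positive in all 15 alternatives. CYP81F2 passed in 8 of 15 and IGMT1 in 9 of 15. That of IGMT2 turned positive when WT replicate 3 (0.14), hb34 replicate 2 (0.10) or hb34 replicate 3 (0.18) was left out (range without 1 library -0.68 to 0.18), and that of IGMT2 and IGMT3 summed turned negative without hb34 replicate 1 (-0.073, range without 1 library -0.073 to 1.091). The number of members that rose was 5 with DESeq2, 0 with limma-voom, 1 with robust dispersions and 0 with a replicate block, and 0 to 3 over the 6 fits that leave out 1 library; the number that fell was 0 in each (edgeR, DESeq2 and limma-voom; 0 were lower by unadjusted p under 0.05 in edgeR on all libraries). Over all genes DESeq2 called 1652 higher and 1012 lower, and the fits without 1 library 1 to 853 higher and 2 to 503 lower, against 675 and 447. They were 1 and 2 when WT replicate 1 was left out, 1 and 3 for WT replicate 2, 502 and 267 for WT replicate 3, 653 and 235 for hb34 replicate 1, and 274 and 115 for hb34 replicate 3. Upper quartile scaling gave 536 and 615. The replicate block gave 2 higher and 3 lower genes and an edgeR adjusted p of 0.117 for CYP81F2 and 0.0908 for IGMT1. Same-numbered libraries had correlations of deviations of -0.10, -0.12 and -0.26. With 3 libraries per group such deviations depend on each other, so these values cannot decide whether the numbers pair the samples. IGMT1 to IGMT4 summed passed with DESeq2 (0.91) and without hb34 replicate 3, with values of 0.59 to 1.15 over the fits without 1 library. The IGMT1 share difference was 3.66 to 5.78 percentage points and the CYP81F2 share difference 14.98 to 25.9 without 1 library. The order of levels per length kept 8 of 8 places in WT without each library, and 3 to 8 of 8 in hb34. No CYP81F4 share could be computed because the gene had no counts. The causes of these shifts were not tested. Depth limits IGMT1, IGMT2 and IGMT3 most, with 5 to 52 counts in WT.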

Other observations

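A pair of relatives of the members had too few counts for the filter of the reported test. Their hb34 libraries lay above all WT libraries, as they did for 17.8% of all genes tested. PYK10, a beta-glucosidase gene of endoplasmic reticulum bodies, received 1, 0 and 0 counts from WT libraries and 5, 33 and 23 from hb34 libraries. ABCG37, a transporter gene of the subfamily of PEN3, received 3, 1 and 4 counts from WT libraries and 11, 17 and 7 from hb34 libraries. With no filter on low counts, edgeR gave an adjusted p of 0.0472 for PYK10 and 0.0982 for ABCG37. Both were picked after their values were seen.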
